A study of Mus musculus with 8 samples.

Results

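Bone marrow-derived macrophages (BMDMs) from Trex1-knockout (Trex1-KO) mice that had received SN-011, a small molecule that inhibits STING, were compared with BMDMs of the same genotype that had received vehicle. The comparison took 4 of the 8 RNA-Seq libraries of the study, 2 with SN-011 and 2 with vehicle, chosen by their titles. The other 4 libraries, 2 from wild-type (WT) BMDMs and 2 from Trex1-KO BMDMs given H151, a second STING inhibitor, shared the estimate of spread and were used to place the levels. Marrow came from the leg bones of mice aged 6 to 8 weeks. The precursors were grown for 7 days in medium with supernatant of L929 cells, a fibroblast line that secretes macrophage growth factor, and were then exposed to DMSO (the vehicle), SN-011 or H151 for 12 h. H151 was given at 500 nM per the labels, and the study's methods name the same dose for SN-011, for which the labels give none. All Trex1-KO groups had the same knockout genotype. The study describes the libraries of a group as independent experiments, while the labels do not say whether they came from separate animals. The p-values below measure the spread between these libraries.

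TREX1 is an exonuclease that removes DNA from the cytosol. When such DNA persists, cGAS binds it and makes the second messenger cGAMP, which activates STING on the endoplasmic reticulum, and STING in turn engages the kinase TBK1 and the transcription factor IRF3 to induce type I interferon, as well as NF-kappaB. Secreted interferon signals through a receptor made of IFNAR1 and IFNAR2 to factors that include STAT2 and IRF9, and induces a large set of interferon-stimulated genes, and mice and people without TREX1 develop interferon-driven inflammation.

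Total counts ranged from 11845470 to 17284863 per library, and both extremes were SN-011 libraries. The knockout could not be checked, since Trex1 had 0 counts in all 8 libraries, WT included. Its whole exonic length is shared with a neighbouring gene, and reads that fit more than 1 gene were not counted. The 14 macrophage markers summed to 38193 and 40089 CPM (read counts scaled to library size, corrected for composition) with vehicle and to 38530 and 38384 CPM with SN-011, and edgeR called 0 of them (DESeq2 also called 0, the exact test 1 lower, and 4 had an unadjusted p under 0.05). Over 8 lists of cell type markers 51 genes were tested and 0 were called by edgeR or DESeq2. The exact test called 3 lower and 1 higher, and 8 had an unadjusted p under 0.05. EdgeR called 2.33% of all tested genes, so 0 of 51 says little about these lists. The dendritic cell markers summed to 356 and 410 CPM with vehicle and to 315 and 321 CPM with SN-011, and most of that sum was Bst2 (347 and 399 CPM, then 306 and 310.0 CPM), which also stands in the antiviral list. Of the 6 tested, 2 were lower and 1 higher at an unadjusted p under 0.05, and the exact test called 2 lower. Clec9a (-1.65) and Zbtb46 (1.51), at most 2.04 CPM in these libraries, were at the ends of their range. In the 4 libraries compared, B cell markers summed to 33.7 to 36.5 CPM and T and NK cell markers to 18.9 to 22.3 CPM. Cd3d, Gzma and Pax5 of these lists had 0 counts there, whereas Cd4, Ebf1 and Ighm passed the filter. Replicate 1 of the SN-011 group stood apart in one measure: small structural RNAs took 0.0992% of its counts, against 0.0292% in SN-011 replicate 2 and between 0.0216% and 0.0391% in the other 6 libraries. The SN-011 libraries carry later record numbers than the others, and a batch limited to them cannot be told apart from the treatment.

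Far more genes were called lower with SN-011 than higher. Of 14591 tested genes, 340 (2.33%) passed a false discovery rate of 0.05 in the edgeR quasi-likelihood test and are said to be called. Of these, 324 (2.22% of tested genes) fell and 16 (0.11%) rose. At least 2-fold changes were found for 70 of the genes that fell and 6 of those that rose. Among the called genes that fell were interferon-stimulated genes, such as Ifit1 and Mx1, and inflammatory genes, such as Acod1, Cxcl10 and Clec4e. Of the 324 genes that fell, 142 stand in the 25 gene lists taken up below. The genes that rose were few and scattered, and 3 of them stand in a list of RNAs that lack a poly(A) tail. In 21.6% of all tested genes both SN-011 libraries lay below both vehicle libraries, and in 21.8% above them, so separation alone says little. It held for all 340 called genes and was also asked for by the rule that chose the genes named below, so it adds nothing to their tests. Without any adjustment, 1061 genes were lower and 695 higher at p under 0.05, and with scaling by total counts alone, which shifted the median of all genes to 0.04, this turned to 848 lower and 1009 higher, while the calls were 269 lower and 29 higher. DESeq2 called 308 genes lower, 293 of them among the 324. The count of genes that fell was 189 without vehicle replicate 1, 121 without SN-011 replicate 1 and 163 without SN-011 replicate 2, and 114 of the 324 were called in every fit that left out 1 library. The count of genes that rose was less firm: it was 0 without SN-011 replicate 1 (387 genes higher at an unadjusted p under 0.05), 8 without vehicle replicate 1 and 42 without vehicle replicate 2, and 0 of the 16 kept their call in every such fit.

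**Figure D1:**
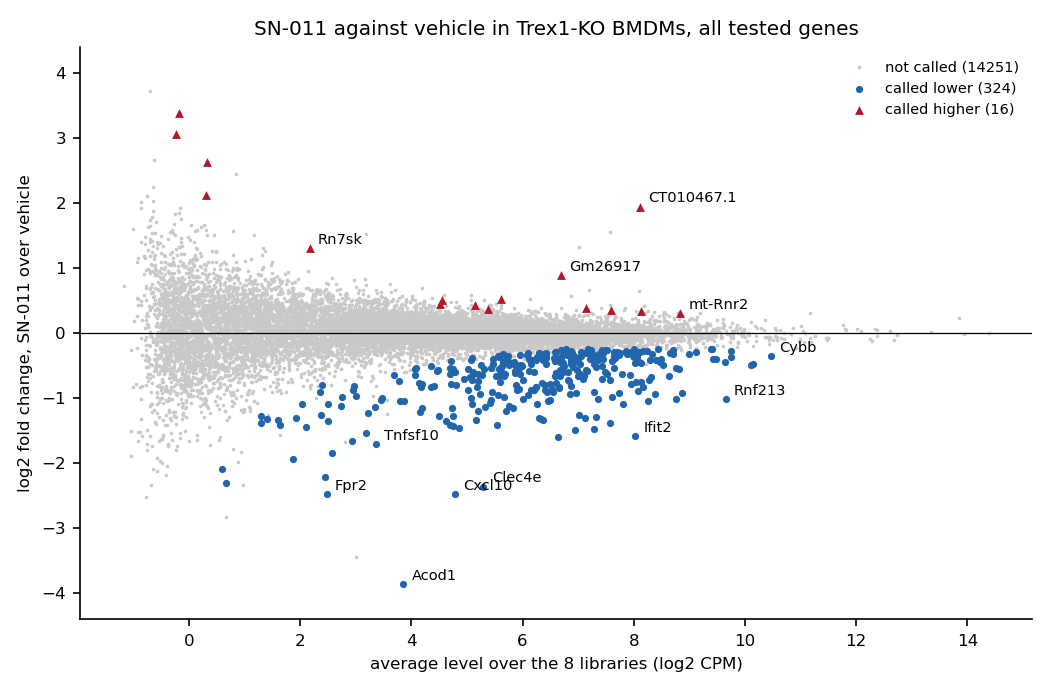
Each point is 1 of the tested genes, with the average level over the 8 libraries (log2 CPM) on the horizontal axis and the log2 fold change of SN-011 over vehicle in Trex1-KO BMDMs on the vertical axis. Blue circles are the 324 genes called lower, red triangles the 16 called higher and grey points the genes not called; most of the called genes lie below 0, with Acod1 lowest.

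The deepest fall was that of Acod1 (ENSMUSG00000022126, GRCm38 chr14:103046977-103056573), the mitochondrial enzyme that makes itaconate in activated macrophages. Acod1 was measured at 44.0 and 38.8 CPM in the vehicle libraries and at 2.85 and 2.80 CPM in the SN-011 libraries, a 14.6-fold fall (log2 fold change -3.86 ± 0.51 SE, edgeR adjusted p = 0.000641). The SN-011 pair nearly coincided. Cxcl10 (ENSMUSG00000034855, chr5:92346638-92348889), a chemokine that attracts T cells, was at 78.2 and 58.7 CPM with vehicle and at 12.2 and 12.3 CPM with SN-011 (5.59-fold lower, log2 fold change -2.48 ± 0.41, edgeR adjusted p = 0.00341). The SN-011 libraries were again close to each other.

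Innate receptors came next. Fpr2, a formyl peptide receptor that guides phagocytes, was at 11.5 and 11.9 CPM with vehicle and at 2.38 and 1.70 CPM with SN-011 (log2 fold change -2.48 ± 0.47, edgeR adjusted p = 0.00983). Clec4e, which encodes the mycobacterial glycolipid receptor Mincle, was at 75.8 and 86.6 CPM with vehicle and at 15.9 and 15.6 CPM with SN-011 (-2.36 ± 0.33, edgeR adjusted p = 0.000971). Gpr84, a receptor of medium-chain fatty acids, was at 10.1 and 10.6 CPM with vehicle and at 2.56 and 1.78 CPM with SN-011 (-2.21 ± 0.37, edgeR adjusted p = 0.00429). Reads in the 39.5% of the exonic length of Gpr84 that other genes share were not counted. The death ligand Tnfsf10 (TRAIL) was at 25.1 and 17.7 CPM with vehicle and at 6.46 and 6.54 CPM with SN-011 (-1.71 ± 0.21, edgeR adjusted p = 0.000413). The cytokine Tnf was at 18.5 and 16.2 CPM with vehicle and at 6.46 and 5.26 CPM with SN-011 (-1.54 ± 0.29, edgeR adjusted p = 0.00943). The processed pseudogene Gm6545 fell as well (-1.84).

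Ifi205, Ifit1, Ifit2 and Mx1, from the lists of interferon-stimulated genes, completed the 12 deepest falls among called genes whose mean level was not low. Called genes with fewer reads, such as Rasgrp1 (-2.31) and Slamf8 (-1.94), ranked between them. Ifit1 (ENSMUSG00000034459, chr19:34640871-34650009), which binds viral RNA that lacks host cap methylation, was at 242 and 196 CPM with vehicle and at 66.0 and 79.4 CPM with SN-011 (3.03-fold lower, log2 fold change -1.60 ± 0.16, edgeR adjusted p = 7.73e-05). Mx1 (ENSMUSG00000000386, chr16:97447035-97462907), a dynamin-like GTPase that restricts influenza virus, was at 275 and 248 CPM with vehicle and at 88.8 and 98.4 CPM with SN-011 (2.80-fold lower, -1.48 ± 0.14, edgeR adjusted p = 5.05e-05). Replicates of a group differed far less than the groups did in both. Acod1, Tnfsf10, Ifi205, Ifit1, Ifit2 and Mx1 kept their calls in every fit that left out 1 library. Cxcl10, Fpr2 and Gpr84 lost them without either SN-011 library (highest adjusted p = 0.116, 0.153 and 0.0852), Clec4e without SN-011 replicate 1 (0.0503), Gm6545 without SN-011 replicate 2 (0.0593) and Tnf without vehicle replicate 1 or either SN-011 library (0.159). DESeq2 did not call Tnf (adjusted p = 0.0781). The 2 WT libraries also differed from each other in several of the inflammatory genes, with 13.6 and 1.69 CPM for Acod1 and 25.8 and 5.62 CPM for Cxcl10.

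**Figure D2:**
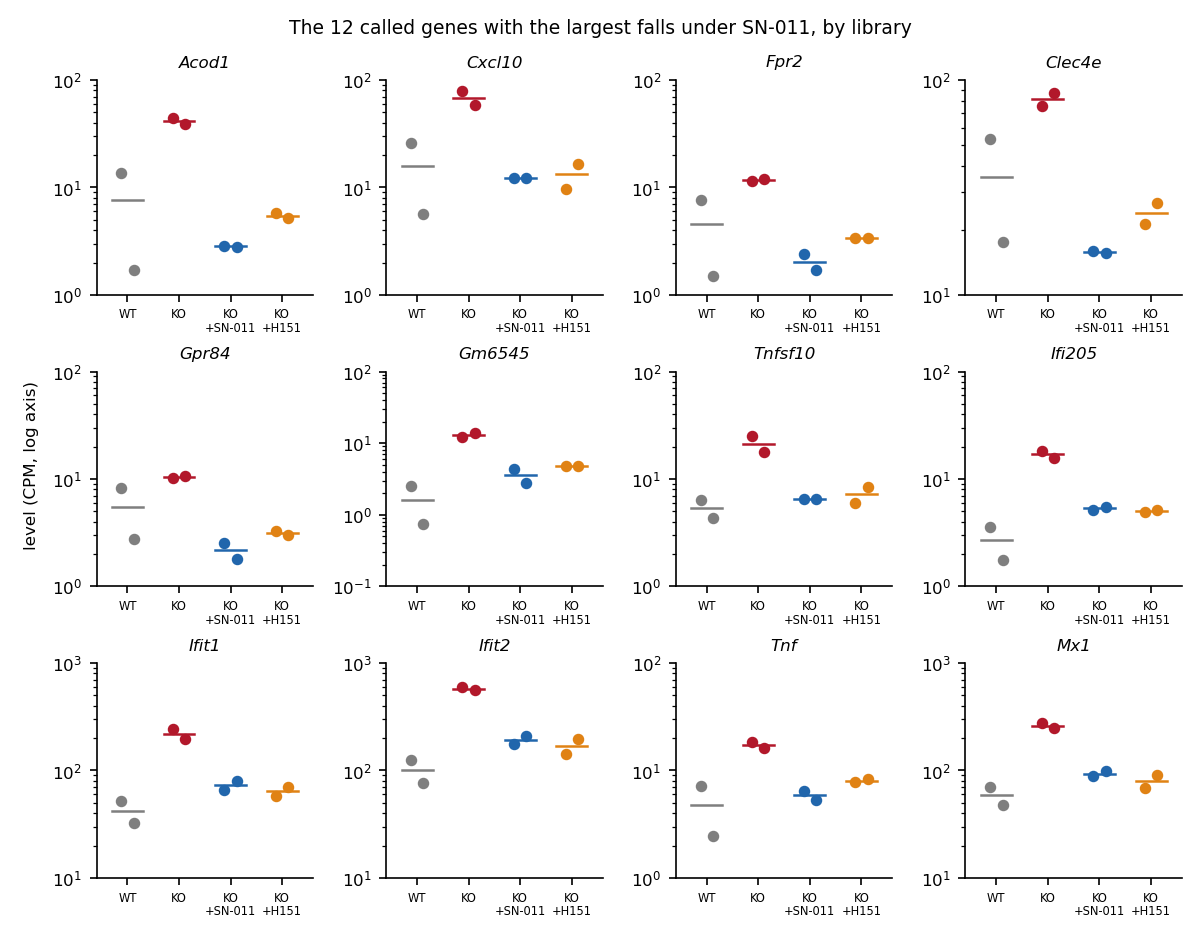
Each panel shows 1 gene, with the level in CPM on a log axis for each of the 8 libraries and a bar at the mean of the 2 libraries of a group; KO stands for Trex1-KO with vehicle. The genes were chosen as called and not overlapping; the fall is deepest in Acod1, from 44.0 and 38.8 down to 2.85 and 2.80 CPM, and the WT pair is wide apart in several panels.

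The core promoters of 4 genes that fell are shown with their matches to short sequences through which interferon and NF-kappaB can act. The interferon-stimulated response element is bound by IRF and STAT factors, and its core was searched as GAAANNGAA. A kappaB-like site was searched as GGGANTTCC and an AP-1 site as TGACTCA. All were searched on both strands, from 250 bases before to 50 bases after the transcription start, in RefSeq sequences of build GRCm38.p6. Matches to the first and the second motif are in capitals, sequences run 5′ to 3′ along the gene's own strand, and overlapping matches run together.

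Cxcl10, chr5:92348840-92349139, minus strand: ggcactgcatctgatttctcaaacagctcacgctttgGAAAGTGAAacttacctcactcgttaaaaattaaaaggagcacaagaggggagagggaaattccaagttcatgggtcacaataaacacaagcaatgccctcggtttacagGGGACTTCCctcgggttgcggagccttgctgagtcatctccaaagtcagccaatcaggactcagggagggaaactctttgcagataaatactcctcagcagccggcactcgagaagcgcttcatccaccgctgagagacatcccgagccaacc
Ifit1, chr19:34640639-34640938, plus strand: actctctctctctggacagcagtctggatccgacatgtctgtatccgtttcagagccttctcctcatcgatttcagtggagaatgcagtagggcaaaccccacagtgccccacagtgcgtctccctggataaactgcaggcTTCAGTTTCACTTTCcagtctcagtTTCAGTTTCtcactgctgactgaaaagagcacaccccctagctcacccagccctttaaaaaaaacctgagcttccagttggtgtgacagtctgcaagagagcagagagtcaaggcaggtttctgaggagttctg
Isg15, chr4:156200769-156201068, minus strand: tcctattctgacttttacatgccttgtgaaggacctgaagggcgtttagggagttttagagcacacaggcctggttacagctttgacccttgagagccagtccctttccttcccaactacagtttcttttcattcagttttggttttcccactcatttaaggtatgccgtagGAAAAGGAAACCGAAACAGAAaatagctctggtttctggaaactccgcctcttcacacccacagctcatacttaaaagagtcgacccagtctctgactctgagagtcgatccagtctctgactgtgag
Acod1, chr14:103046762-103047061, plus strand: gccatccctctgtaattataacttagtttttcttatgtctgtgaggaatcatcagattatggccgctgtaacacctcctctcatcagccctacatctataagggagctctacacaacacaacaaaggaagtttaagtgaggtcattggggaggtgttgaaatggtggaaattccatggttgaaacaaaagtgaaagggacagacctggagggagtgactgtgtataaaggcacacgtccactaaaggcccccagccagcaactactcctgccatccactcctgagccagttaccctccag

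The window of Cxcl10 held 1 match to the response element core, 1 kappaB-like match and 1 AP-1 match, and those of Ifit1 and Isg15 held 3 matches each to the response element core, some of them overlapping. The window of Acod1 held no match to any of the 3. Only these strings were searched, so a window without a match may still hold variants of the sites. Among the genes that fell, 268 of 324 had a promoter in the table, and 74 of these (27.6%) held the response element core, against 8.57% of all 27025 promoters and 6.96% of those of tested genes that were not called. The kappaB-like sequence was in 4.48% of the promoters of genes that fell, in 1.69% of all promoters and in 2.25% of those of tested genes not called. For the AP-1 sequence these shares were 7.09%, 5.17% and 3.56%. Of the genes that rose, 7 had a promoter in the table and 0 held any of the 3 sequences. These shares are descriptions of letters in a fixed window and carry no test.

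Components of the pathway upstream of interferon were mostly not called. Counts of called members in this and the following lists stand beside 2.22% of all tested genes called lower and 0.11% called higher. Of 19 genes of the cGAS-STING list, edgeR called 2 lower and 0 higher, and the list's median log2 fold change was -0.01, beside 0.01 over all tested genes (DESeq2 called 2 lower and 0 higher, and at an unadjusted p under 0.05 there were 4 lower and 0 higher). Tmem173, which encodes STING itself, was at 57.0 and 48.9 CPM with vehicle and at 51.4 and 46.0 CPM with SN-011 (log2 fold change -0.11 ± 0.09, edgeR adjusted p = 0.678). The vehicle and SN-011 ranges overlapped. Cgas was at 16.5 and 20.2 CPM with vehicle and at 13.7 and 13.9 CPM with SN-011 (-0.42 ± 0.15, edgeR adjusted p = 0.246), and was not called although the groups did not overlap. Tbk1 (-0.01 ± 0.06) and Irf3 (0.17 ± 0.09) were not called either. The 2 genes that fell are themselves inducible. Ifi204, a cytosolic DNA sensor of the PYHIN family that works beside cGAS, went from 466 and 469.9 CPM to 259 and 265 CPM (-0.84 ± 0.07, edgeR adjusted p = 2.23e-05). Ikbke, a kinase related to TBK1, went from 355 and 334 CPM to 248 and 253 CPM (-0.46 ± 0.07, edgeR adjusted p = 0.00190), and its call was lost without SN-011 replicate 1 (adjusted p = 0.0644).

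Within interferon signalling, transcription factors and a feedback gene fell, and the receptor genes were not called. Ifnb1 had at most 2 counts in any library, under the floor of 3 counts, and was not tested, so the level of interferon-beta mRNA was not detectable at this depth. Of 20 tested genes of the signalling list, 6 were called lower and 0 higher by edgeR, with a median log2 fold change of -0.25. Usp18, the protease that shuts off the receptor, went from 97.6 and 96.6 CPM to 47.6 and 50.3 CPM (-0.99 ± 0.14, edgeR adjusted p = 0.000919). Stat2, a subunit of the factor that binds the response element, went from 350.4 and 322 CPM to 168 and 173 CPM (-0.98 ± 0.06, edgeR adjusted p = 1.04e-05). The amplifier Irf7 (-0.75 ± 0.12) fell as well, as did Irf1 and Irf2. Irf9, another subunit of that factor, was at 129 and 129.8 CPM with vehicle and at 108 and 110.0 CPM with SN-011 and was not called (-0.25 ± 0.07, edgeR adjusted p = 0.0788). The receptor genes Ifnar1 (-0.21 ± 0.07) and Ifnar2 (-0.01 ± 0.05) were not called. Without SN-011 replicate 1 the call of Irf7 was lost (adjusted p = 0.084). Irf1 kept its call in every alternative, but Irf2 lost it in 6 of the fits that left out 1 library, with scaling by total counts alone and in DESeq2 (adjusted p = 0.101).

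Downstream of these factors the falls were broad. Of 50 tested antiviral effectors 37 fell and 0 rose in the edgeR test, and the median over the 50 was -0.84. The Ifit genes, Mx1 and Mx2, most Oas genes, both Oasl genes and the Slfn genes were among those that fell, while Ifitm1, Ifitm2, Ifitm3 and Bst2 were not called. Ifit3 went from 350.3 and 322 CPM to 115 and 127 CPM (2.78-fold lower, log2 fold change -1.47 ± 0.12, edgeR adjusted p = 2.23e-05). Rsad2 (-1.38), which encodes viperin, and Ddx58 (-0.91) and Ifih1 (-0.86), the RNA sensors RIG-I and MDA5, fell together with it. Those last 3 were chosen after their values were seen.

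The interferon-inducible GTPases, which attack the vacuoles of intracellular pathogens, had the lowest median of all lists. Of 16 tested members 14 fell and 0 rose, and the median was -0.97. Tgtp2 went from 60.1 and 57.0 CPM to 21.5 and 22.1 CPM (2.69-fold lower, log2 fold change -1.43 ± 0.12, edgeR adjusted p = 2.03e-05). Iigp1 went from 179 and 172 CPM to 69.1 and 70.9 CPM (-1.33 ± 0.14, edgeR adjusted p = 0.000101). The libraries within each group were close to each other in both genes. Gbp4 (-1.45) and Gbp5 (-1.35) fell by a similar amount, but the call of Gbp4 was lost without either library of either group (highest adjusted p = 0.386) and that of Gbp5 without SN-011 replicate 1 (0.117). Tgtp1 and Gbp8 were not called. Without SN-011 replicate 1 the count for the list was 8.

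Nucleic acid sensors fell in 15 of 20 tested members, with 0 higher and a median of -0.79. The PYHIN gene Ifi213 went from 277 and 268 CPM to 104 and 124 CPM (2.40-fold lower, log2 fold change -1.27 ± 0.09, edgeR adjusted p = 1.04e-05). Its relatives Ifi205 (-1.66) and Ifi208 (-1.42) fell further, and the sensor of left-handed nucleic acid Zbp1 (-1.09) fell as well. In contrast Aim2, which senses DNA for the inflammasome, was at 77.3 and 68.3 CPM with vehicle and at 62.0 and 65.0 CPM with SN-011 and was not called (-0.20 ± 0.08, edgeR adjusted p = 0.294). Mavs, Tlr7, Tlr8 and Unc93b1 were not called. Among 24 genes of the ubiquitin-like modifier ISG15, PARP enzymes and TRIM ligases, 18 fell and 0 rose, and the median was -0.63. The giant ubiquitin ligase Rnf213 went from 1414 and 1312 CPM to 634 and 719.6 CPM (2.02-fold lower, -1.01 ± 0.09, edgeR adjusted p = 2.53e-05). Parp14 went from 767 and 668 CPM to 337 and 374 CPM (-1.01 ± 0.09, edgeR adjusted p = 2.94e-05). Isg15 went from 70.0 and 83.2 CPM to 35.96 and 33.5 CPM (-1.14 ± 0.23, edgeR adjusted p = 0.0163), with a wider error than its neighbours. Without SN-011 replicate 1 the count for this list was 11. Isg15 was not called by DESeq2 (adjusted p = 0.166), nor without either SN-011 library or vehicle replicate 2 (highest adjusted p = 0.203). Over the 5 interferon lists together 90 of 130 tested genes fell, beside 2.22% of all tested genes, and 0 rose. DESeq2 gave 89 and 0, and at an unadjusted p under 0.05 there were 109 lower and 0 higher. Several of these families (Ifit, Ifi200, Gbp, Slfn, Oas and Trim30) hold near-identical copies, so the split of reads between their members is uncertain.

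**Figure D3:**
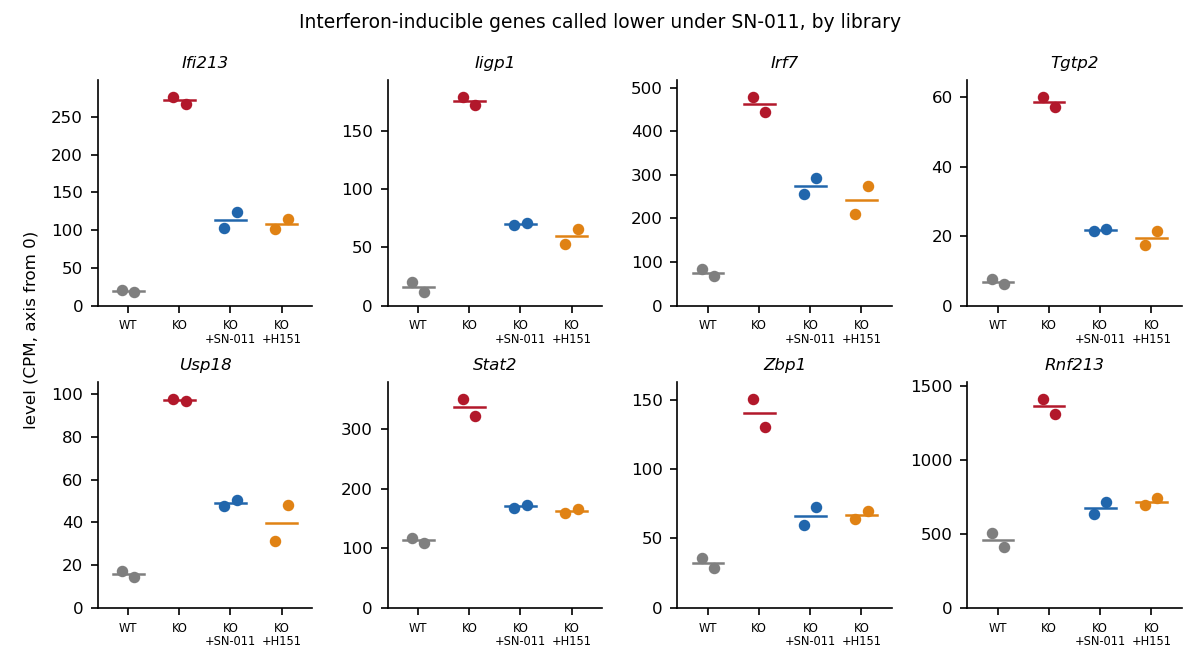
Each panel shows 1 interferon-inducible gene that fell with SN-011, with the level in CPM on an axis from 0 for each of the 8 libraries and a bar at the mean of each group; KO stands for Trex1-KO with vehicle. The SN-011 libraries lie between WT and vehicle-treated Trex1-KO libraries, as in Irf7 with 256 and 293 CPM against 83.6 and 66.9 CPM in WT and 479 and 445 CPM with vehicle.

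Of 19 tested chemokines edgeR called 3 lower (Cxcl10, Ccl12 and Cxcl2) and 0 higher, and the median was -0.27. Cxcl2, a neutrophil attractant, went from 12.4 and 15.4 CPM to 5.64 and 6.37 CPM (log2 fold change -1.22 ± 0.21, edgeR adjusted p = 0.00579). Ccl2, the main monocyte attractant, was at 12.2 and 10.6 CPM with vehicle and at 11.9 and 11.3 CPM with SN-011 and was not called (0.03 ± 0.18, edgeR adjusted p = 0.969). Ccl5 was at 23.01 and 17.9 CPM with vehicle and at 8.84 and 8.24 CPM with SN-011, without overlap, but missed the threshold (-1.25 ± 0.33, edgeR adjusted p = 0.0793). Of 18 tested cytokines Tnfsf10 and Tnf fell and 0 rose, with a median of -0.17. Il1b was at 14.0 and 19.3 CPM with vehicle and at 6.75 and 9.94 CPM with SN-011 and was not called (-1.02 ± 0.28, edgeR adjusted p = 0.0873). Ccl2, Ccl5 and Il1b were chosen after their values were seen. Without either SN-011 library the chemokine count was 0, and the cytokine count was 1 without either SN-011 library or vehicle replicate 1. Cxcl2 was not called without either SN-011 library (highest adjusted p = 0.159), and Ccl12 was called neither by DESeq2 (adjusted p = 0.0748) nor without any 1 of the 4 libraries compared (highest 0.317).

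Genes of the NF-kappaB system fell in 10 of 26 tested members, with 0 higher and a median of -0.31. They were mostly inhibitors and early targets of the factor. Nfkbie, an inhibitor of the IkappaB family, went from 52.1 and 40.9 CPM to 26.2 and 24.5 CPM (log2 fold change -0.87 ± 0.15, edgeR adjusted p = 0.00570). Tnfaip3, which encodes the deubiquitinase A20, went from 63.2 and 58.8 CPM to 37.9 and 40.3 CPM (-0.64 ± 0.13, edgeR adjusted p = 0.0166). The adaptor Traf1 (-0.83 ± 0.14) and the chemerin-binding receptor Ccrl2 (-0.64 ± 0.10) fell too. Among the subunits, Relb (-0.58) and Rel (-0.28) fell and Rela, Nfkb1 and Nfkb2 were not called. The count for the list was 1 without either SN-011 library and 3 without vehicle replicate 1. Relb lost its call without either SN-011 library, and Rel in 6 fits that left out 1 library, with scaling by total counts alone and in DESeq2 (adjusted p = 0.0506). Each of the calls of Nfkbie and Tnfaip3 was lost without vehicle replicate 1 or either SN-011 library (highest adjusted p = 0.0996 and 0.269), that of Traf1 without either SN-011 library (0.0923) and that of Ccrl2 without SN-011 replicate 1 (0.079).

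Receptors and surface molecules of activated macrophages followed. Of 21 receptors for microbial ligands 6 fell and 0 rose, with a median of -0.22. Tlr2, the lipopeptide receptor, went from 268 and 240.1 CPM to 180.2 and 168 CPM (log2 fold change -0.54 ± 0.10, edgeR adjusted p = 0.00925), whereas Tlr4, the endotoxin receptor, was not called (-0.09). Fpr1 fell (-1.31 ± 0.23) beside Fpr2. The count for these receptors was 0 without SN-011 replicate 1, 2 without SN-011 replicate 2 and 3 without vehicle replicate 1. Of 21 costimulatory and adhesion genes 11 fell and 0 rose, with a median of -0.48. Icam1, the ligand of leukocyte integrins, went from 150.7 and 143 CPM to 87.4 and 76.9 CPM (-0.83 ± 0.13, edgeR adjusted p = 0.00248). Cd40 went from 30.1 and 24.9 CPM to 15.2 and 16.9 CPM (-0.78 ± 0.16, edgeR adjusted p = 0.0149). Cd274 (-0.75), which encodes PD-L1, and Slamf8 (-1.94) fell, and Daxx (-0.77 ± 0.07), which stands in the list but is a nuclear histone chaperone, fell with a small error. Cd80 and Cd86 were not called. The count for the list was 5 without either SN-011 library and 6 without vehicle replicate 1. The calls of Tlr2 and Cd40 were lost without vehicle replicate 1 or either SN-011 library (highest adjusted p = 0.165 and 0.271), those of Fpr1 without either SN-011 library (0.0984), of Icam1 without SN-011 replicate 2 (0.0696) and of Slamf8 without any 1 of the 4 libraries (0.238).

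Metabolic enzymes of activated macrophages fell in 4 of 18 tested members, with 0 higher and a median of -0.26. Besides Acod1 they were Sod2, the mitochondrial superoxide dismutase, Gch1, which makes the cofactor of nitric oxide synthase, and Cybb, the catalytic subunit of the phagocyte NADPH oxidase. Sod2 went from 107 and 102 CPM to 59.9 and 57.8 CPM (log2 fold change -0.83 ± 0.12, edgeR adjusted p = 0.00156) and kept its call without any 1 library. Cybb, one of the more abundant transcripts, went from 1756 and 1746 CPM to 1356 and 1388 CPM (-0.35 ± 0.07, edgeR adjusted p = 0.0116). Saa3, an acute-phase protein chosen after its values were seen, was at 13.9 and 22.03 CPM with vehicle and at 1.98 and 1.19 CPM with SN-011, yet missed the threshold (-3.45 ± 0.87, edgeR adjusted p = 0.0629). The calls of Cybb and Gch1 were lost without vehicle replicate 1 or either SN-011 library (highest adjusted p = 0.242 and 0.224), and that of Gch1 also without vehicle replicate 2. The count for the list was 2 without vehicle replicate 1 or either SN-011 library.

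Antigen presentation genes fell in part. Of 24 listed class I genes 6 fell and 0 rose, with a median of -0.23. H2-Q1, a class I heavy chain outside the list, was called higher from few reads. Nlrc5, the transactivator of class I genes, went from 168 and 162 CPM to 107 and 110.1 CPM (log2 fold change -0.60 ± 0.06, edgeR adjusted p = 6.77e-05). Tap1, the peptide transporter, went from 214 and 196 CPM to 136 and 139.5 CPM (-0.57 ± 0.07, edgeR adjusted p = 0.000380). Both kept their calls without any 1 library, as did Tapbp (-0.45 ± 0.06), a loading factor. The deepest fall of the list was that of H2-T24 (-1.02 ± 0.12), a nonclassical heavy chain, which also kept its call. The heavy chains H2-T22 and H2-T23 were called too, but H2-T22 was not without SN-011 replicate 1 (adjusted p = 0.085), and H2-T23 was lost in 6 fits that left out 1 library (highest adjusted p = 0.342). The classical chains H2-K1 (-0.04) and H2-D1 (0.07) and the light chain B2m (-0.07) were not called. Of 9 class II genes only Cd74, the invariant chain, was called, and it went from 207 and 198 CPM to 143 and 148 CPM (-0.48 ± 0.07, edgeR adjusted p = 0.00171). That call was lost without SN-011 replicate 1 (adjusted p = 0.0605). Reads in the 29.0% of the exonic length of Tapbp that other genes share were not counted.

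Cell death genes fell in 5 of 22 tested members (Zbp1, Casp4, Nlrp3, Mcl1 and Cflar), with 0 higher and a median of -0.14. Casp4, the caspase that binds intracellular endotoxin, went from 58.2 and 50.0 CPM to 30.2 and 30.4 CPM (log2 fold change -0.84 ± 0.13, edgeR adjusted p = 0.00260). Nlrp3 (-0.40 ± 0.07) and the survival factor Mcl1 (-0.28 ± 0.05) fell less. The kinases and executors of necroptosis were not called, Ripk3 at 0.03 and Mlkl at -0.53 ± 0.13 (edgeR adjusted p = 0.0669). The count for the list was 1 without SN-011 replicate 1 and 2 without SN-011 replicate 2 or vehicle replicate 1. Casp4 lost its call without SN-011 replicate 1 (adjusted p = 0.0724), and Nlrp3 and Mcl1 lost theirs without vehicle replicate 1 or either SN-011 library (highest 0.109 and 0.224).

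Most housekeeping, stress and metabolic lists had no called member. Over 9 such lists, 246 genes were tested, 2 fell, Hif1a among them, and 0 rose in the edgeR test. Of all tested genes 2.22% fell and 0.11% rose, so a short list would often hold no call. For the 9 lists together DESeq2 gave 3 and 0 and the exact test 4 and 9. At an unadjusted p under 0.05 there were 12 lower and 31 higher. Hif1a, the oxygen-regulated transcription factor, went from 160.5 and 155 CPM to 127 and 128 CPM (log2 fold change -0.31 ± 0.07, edgeR adjusted p = 0.0321). It lost its call without any 1 of the 4 libraries compared and with scaling by total counts alone (highest adjusted p over these = 0.305).

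Some lists were mostly higher in sign without a call in the fit of all 8 libraries. Neutrophil markers were higher in sign in 8 of 8 tested members (median log2 fold change 0.26, summed level 75.6 and 97.9 CPM with vehicle, 89.3 and 114.9 CPM with SN-011), fibroblast markers in 10 of 11 (0.13) and histone genes in 12 of 15 (0.17). These medians rested on single libraries. That of the neutrophil markers was 0.04 without SN-011 replicate 2 and 0.40 without SN-011 replicate 1, and 2 of them were called higher without vehicle replicate 2. The fibroblast median was -0.0040 without vehicle replicate 2 and 0.26 without vehicle replicate 1, and the histone median 0.02 without SN-011 replicate 1 and 0.26 without vehicle replicate 2. Cytosolic ribosomal protein genes were higher in sign in 75 of 86 tested members, with a median log2 fold change of 0.18, and 0 were called by edgeR or DESeq2 (the exact test called 6 higher, and 19 were higher and 0 lower at an unadjusted p under 0.05). Their median was 0.06 without vehicle replicate 1 and 0.26 without vehicle replicate 2, where edgeR called 8 higher. Their summed level was 26303 CPM in vehicle replicate 1 and 30005 CPM in vehicle replicate 2, against 31219 and 30684 CPM with SN-011. Cell cycle genes were higher in sign in 25 of 30, with a median of 0.14 that ran from 0.06 without vehicle replicate 2 to 0.23 without vehicle replicate 1. Here too edgeR called 0, while 7 were higher and 2 lower at an unadjusted p under 0.05, DESeq2 called 1 lower, and the exact test 3 higher and 1 lower. Ccnb1, the mitotic cyclin, was at 7.24 and 5.67 CPM with vehicle and at 11.3 and 11.5 CPM with SN-011 (0.82 ± 0.20, edgeR adjusted p = 0.0536). Mki67, chosen after its values were seen, was at 35.7 and 33.5 CPM with vehicle and at 44.3 and 42.5 CPM with SN-011 (0.33 ± 0.09, edgeR adjusted p = 0.0950). The SN-011 libraries were above the vehicle libraries in both, and neither passed the threshold. Of the immediate early genes Junb alone was called (1 of 22, -0.36 ± 0.09, edgeR adjusted p = 0.0465), and its call was lost without vehicle replicate 1 or either SN-011 library, with scaling by total counts alone and with a minimum count of 30 (highest adjusted p over these = 0.368).

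Of all tested genes 2.22% fell and 0.11% rose. Over all 25 lists, each gene taken once, 142 of 591 tested genes fell and 0 rose by edgeR. DESeq2 gave 143 and 0, the exact test 177 and 11, and an unadjusted p under 0.05 was reached by 220 lower and 33 higher. The lower count was 79 without SN-011 replicate 1, 98 without SN-011 replicate 2 and 110 without vehicle replicate 1.

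**Figure D4:**
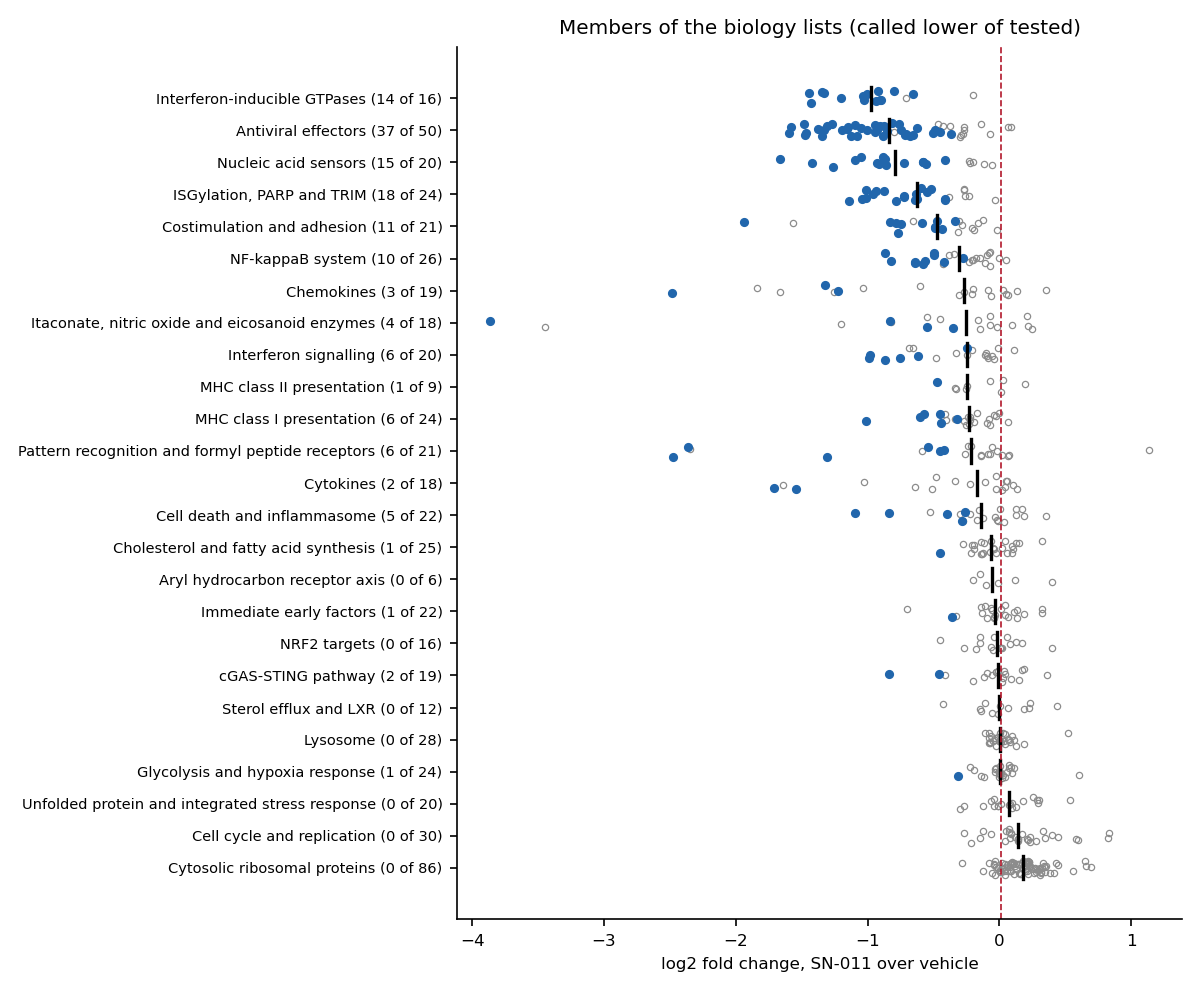
Each row is 1 of the 25 gene lists, each circle a tested member, and the horizontal axis gives the log2 fold change of SN-011 over vehicle; filled blue circles were called lower, the black tick is the list's median and the dashed red line the median of all tested genes. The GTPase, antiviral effector, sensor and ISG15 lists lie farthest to the left, with medians of -0.97, -0.84, -0.79 and -0.63, and ribosomal proteins farthest to the right with 0.18.

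The 16 genes that rose included none of the members of the 25 biology lists. The 16 were 0.11% of all tested genes, so this absence says little about the lists. Apart from genes with few reads, the largest rises were in RNAs from the list of those without a poly(A) tail. CT010467.1 (ENSMUSG00000106106, chr17:39846353-39848827), annotated as ribosomal RNA, was at 129 and 158 CPM with vehicle and at 911 and 194 CPM with SN-011 (log2 fold change 1.95 ± 0.45, edgeR adjusted p = 0.0367). The rise stood almost wholly in SN-011 replicate 1, since replicate 2 lay under both WT libraries (277 and 253 CPM). Reads in the 73.9% of the exonic length of CT010467.1 that other genes share were not counted. Gm26917, annotated as a long noncoding RNA and adjacent to it, was at 67.2 and 83.0 CPM with vehicle and at 167 and 109.7 CPM with SN-011 (0.89 ± 0.15, edgeR adjusted p = 0.00448). Rn7sk, the small nuclear RNA that holds back transcription elongation, was at 2.72 and 2.84 CPM with vehicle and at 8.32 and 5.26 CPM with SN-011 (1.31 ± 0.29, edgeR adjusted p = 0.0291). In each of the 3 genes SN-011 replicate 1 was the highest of all 8 libraries, and 17 listed RNAs without a poly(A) tail summed to 199.6 and 245.0 CPM with vehicle and to 1087.2 and 309.0 CPM with SN-011. None of the 3 was called without SN-011 replicate 1, and the highest adjusted p over all alternatives was 0.353 for CT010467.1, 0.0696 for Gm26917 and 0.471 for Rn7sk. DESeq2 did not call CT010467.1 (adjusted p = 0.214).

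Among the other genes that rose, the changes were small or the counts were low. Rhob, a small GTPase of endosomes and the cytoskeleton, went from 118 and 119.6 CPM to 157 and 153 CPM (log2 fold change 0.39 ± 0.06, edgeR adjusted p = 0.00171). The call was lost only without SN-011 replicate 1, at an adjusted p of 0.0504. The mitochondrial ribosomal RNA mt-Rnr2 went from 344 and 359 CPM to 444 and 429.9 CPM (0.31 ± 0.05, edgeR adjusted p = 0.00560), and it was the 1 called gene of 25 tested mitochondrial genes. Slc26a11, an anion transporter, went from 168 and 159 CPM to 210.2 and 208 CPM (0.36 ± 0.08, edgeR adjusted p = 0.0244). Cpe, a carboxypeptidase that processes prohormones, went from 14.3 and 13.3 CPM to 19.4 and 19.8 CPM (0.51 ± 0.11, edgeR adjusted p = 0.0283), and both WT libraries were higher, at 44.5 and 43.6 CPM. Actg2, a smooth muscle actin, went from 19.3 and 18.5 CPM to 27.4 and 23.1 CPM (0.43 ± 0.10, edgeR adjusted p = 0.0492), with 72.6 and 71.1 CPM in WT. Beside these last 2, the summed level of 12 fibroblast markers was 1648 and 1324 CPM with vehicle, 1769 and 1496 CPM with SN-011 and 3615 and 3303 CPM in WT. Its part in their change was not tested. Haus8, Ypel3, Gm11808 and the pseudogene Rpl37rt rose by 0.33 to 0.52 on the log2 scale. DESeq2 did not call Cpe (adjusted p = 0.0544), Actg2 (0.0863), Haus8 (0.081) or Rpl37rt (0.106).

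The 4 remaining genes had few reads. Trpc6, a cation channel, had 7 and 4 counts with vehicle and 25 and 24 counts with SN-011. Klhl13 had 3 and 3 against 23 and 16 counts, Peg12 had 2 and 1 against 20 and 8 counts, and the class I gene H2-Q1 had 1 and 4 against 35 and 21 counts. SN-011 libraries were higher in all 4, but the vehicle counts of the last 3 were within a few reads of the floor. All 12 genes of the naming rule that rose, and these 4, lost their call in at least 1 fit that left out a library.

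**Figure D5:**
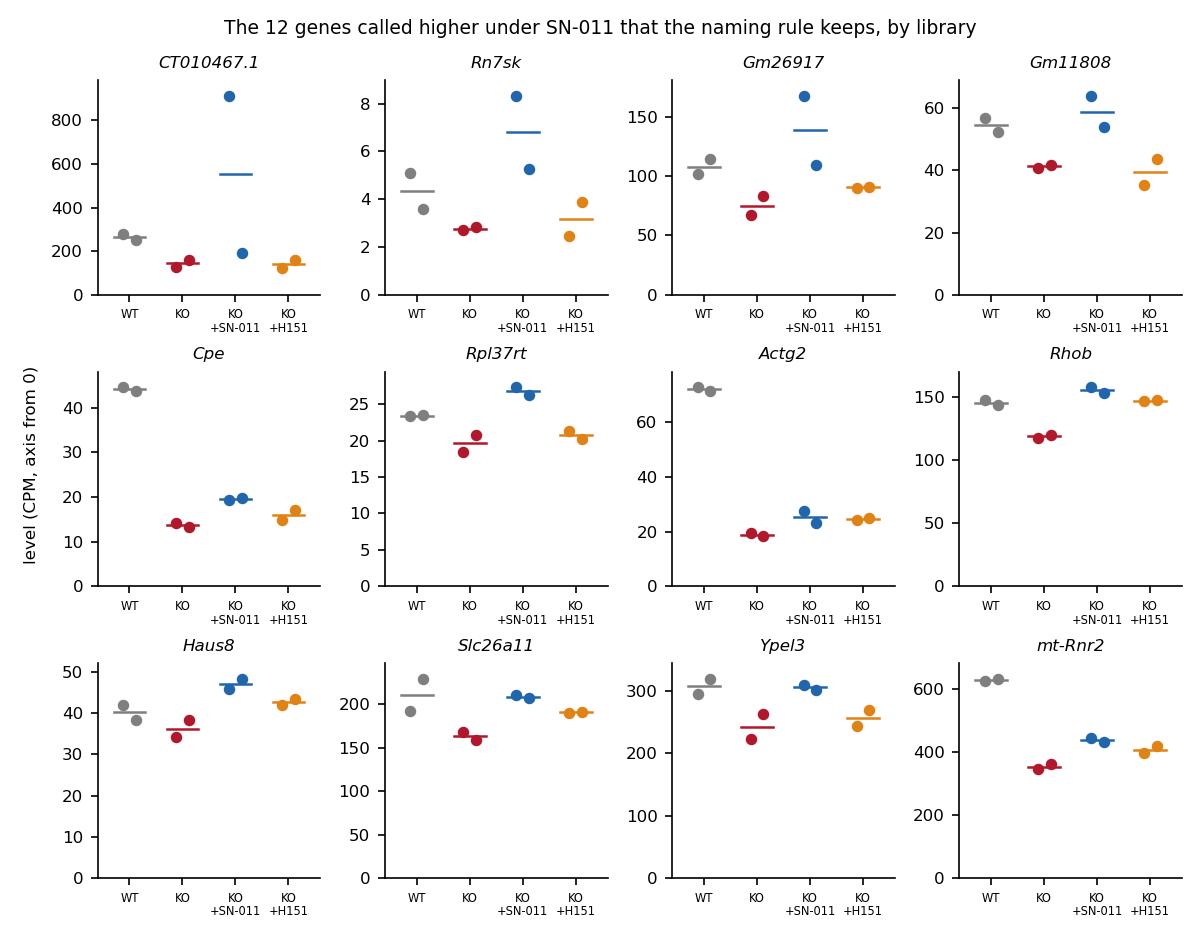
Each panel shows 1 of 12 genes that rose with SN-011, with the level in CPM on an axis from 0 for each of the 8 libraries and a bar at the mean of each group; KO stands for Trex1-KO with vehicle. SN-011 replicate 1 stands far above every other library in CT010467.1 (911 CPM), whereas the SN-011 pair is close in Rhob (157 and 153 CPM) and in Slc26a11 (210.2 and 208 CPM).

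The levels after 12 h with SN-011 were also set against those of WT BMDMs. This comparison shares the SN-011 libraries with the one above, so its values are set beside it and are not independent of it. With SN-011, 902 genes (6.18%) were higher and 812 (5.57%) lower than in WT by edgeR, 1714 (11.7%) in all. With scaling by total counts alone the split turned to 703 higher and 1042 lower. The total was 975 without WT replicate 1, 1052 without SN-011 replicate 1 and 906 without SN-011 replicate 2. Many interferon genes were higher with SN-011 than in WT. That held for 10 of 20 genes of interferon signalling (median log2 fold change over WT 0.21), 40 of 50 antiviral effectors (0.76), 10 of 16 GTPases (0.65), 15 of 20 sensors (0.52) and 18 of 24 genes of the ISG15, PARP and TRIM list (0.49), and in these lists only Tlr9 was lower than in WT. Ifi213 was at 20.8 and 18.8 CPM in WT against 104 and 124 CPM with SN-011 (2.52 ± 0.10, edgeR adjusted p = 5.96e-09). Irf7 was at 83.6 and 66.9 CPM in WT against 256 and 293 CPM with SN-011 (1.87 ± 0.12, edgeR adjusted p = 5.01e-07). In both genes the SN-011 libraries lay between the WT and the vehicle-treated Trex1-KO libraries. Of 9 class II genes 8 were also higher than in WT (median 1.00).

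In the NF-kappaB list 3 genes were higher than in WT (Traf1, Gadd45b and Ccrl2) and 2 lower (Tnfaip2 and Ier3) of 26, and the median was -0.02. Among chemokines 4 were higher (Ccl3, Ccl4, Ccl6 and Ccl9) and 2 lower (Cxcl12 and Cxcl14) of 19. Cxcl10 (-0.34 ± 0.45, edgeR adjusted p = 0.733) and Acod1 (-1.41 ± 0.60, edgeR adjusted p = 0.177) were not called against WT, where the WT pair itself was widely spread. Clec4e was lower with SN-011 than in WT (-1.15 ± 0.35, edgeR adjusted p = 0.0467), with 53.1 and 17.6 CPM in WT. Whether the lists differ from each other in their distance to WT was not tested.

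SN-011 and H151 were also compared directly, since both were set against the same vehicle libraries. EdgeR called 23 genes (0.158%), all lower with SN-011 than with H151, and 0 higher. At an unadjusted p under 0.05 there were 677 lower and 623 higher, DESeq2 called 35 lower and 3 higher, the exact test 54 lower and 18 higher, and the dose was the same for both compounds per the study's methods. The count was 270 (91 lower and 179 higher) without H151 replicate 2, 2 without SN-011 replicate 1 and 11 without SN-011 replicate 2. None of the genes with the 12 deepest falls was among the 23. Acod1 was at 2.85 and 2.80 CPM with SN-011 and at 5.78 and 5.17 CPM with H151 (log2 difference -0.95 ± 0.64, edgeR adjusted p = 0.699), and Ifit1 at 66.0 and 79.4 CPM against 57.9 and 70.9 CPM (0.17 ± 0.17, edgeR adjusted p = 0.811). A missed threshold does not show that the compounds act alike on these genes.

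Set beside vehicle, which both comparisons share, 16 of the 23 genes were called higher with H151 and 4 (C5ar1, Cd74, Ehd1 and Il21r) lower with SN-011. Against vehicle, H151 gave 325 calls (2.23%), 269 lower (1.84%) and 56 higher (0.384%). Notch1, a receptor of cell fate decisions, was at 77.5 and 81.0 CPM with SN-011, 166 and 145 CPM with H151 and 92.5 and 85.0 CPM with vehicle (SN-011 over H151 -0.97 ± 0.08, edgeR adjusted p = 0.000119). Ahrr, the repressor of the aryl hydrocarbon receptor, was at 14.9 and 11.6 CPM with SN-011, 32.0 and 32.3 CPM with H151 and 16.1 and 14.6 CPM with vehicle (-1.26 ± 0.13, edgeR adjusted p = 0.00141). Cyp1b1, an enzyme induced through that receptor, was at 41.4 and 34.0 CPM with SN-011, 73.7 and 60.9 CPM with H151 and 38.3 and 31.7 CPM with vehicle (-0.82 ± 0.13, edgeR adjusted p = 0.0270). In these 3 genes the H151 libraries were the highest of the 3 Trex1-KO groups. Mmp8, the neutrophil collagenase (-1.16 ± 0.16, edgeR adjusted p = 0.0117), and Ptgs1, cyclooxygenase-1 (-0.72 ± 0.09, edgeR adjusted p = 0.00507), were also higher with H151 than in both other groups. Ahrr and Notch1 kept their calls in every alternative. Cyp1b1 lost its call against H151 without H151 replicate 1 or either SN-011 library, and Mmp8 and Ptgs1 lost theirs without SN-011 replicate 1. Cd74 was among the genes lower with SN-011, with 143 and 148 CPM with SN-011 against 213 and 192 CPM with H151 and 207 and 198 CPM with vehicle (-0.48 ± 0.07, edgeR adjusted p = 0.0192). Ehd1, a regulator of endocytic recycling chosen after its values were seen, was at 72.0 and 66.8 CPM with SN-011, 102 and 103 CPM with H151 and 121 and 117 CPM with vehicle (-0.55 ± 0.09, edgeR adjusted p = 0.0262). Against H151, Cd74 lost its call without H151 replicate 1 or either SN-011 library, and Ehd1 without either SN-011 library.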

How the data were processed

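Poly(A)+ RNA of BMDMs was sequenced in 8 libraries of 4 groups (WT, Trex1-KO, Trex1-KO+H151 and Trex1-KO+SN-011, 2 libraries each), grouped by sample title. The authors aligned reads with HISAT2 and counted them per gene (featureCounts in the study's methods, HTSeq in the submitters' processing notes; the build given is mm10, and versions are not given in the sources used here), and the deposited values are raw counts. Identifiers were matched to GENCODE M21 (54495 of 54532).

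Counts were tested in R 4.3.3 with edgeR 4.0.16: filterByExpr (minimum count 10, minimum total 15), TMM factors (0.973 to 1.04), 1 quasi-likelihood fit with 1 mean per group over all 8 libraries, two-sided F-tests, and Benjamini-Hochberg adjustment over 14591 genes at 0.05. Standard errors (SE) were obtained by dividing each fold change (log2, without sign) by the root of its F statistic. One count was worth 0.0582 to 0.0849 CPM, and the floor of 3 counts covers counting error only. The standard errors also hold the spread between libraries. The fit was tested on simulated data. Alternatives were RLE factors, total counts, other filters, DESeq2 1.42.0, the exact test, 2 groups only, a replicate block and leaving out each library.

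Genes named are, by rule, the 12 called genes with the largest falls and rises (average log2 CPM of at least 2, groups not overlapping), up to 4 called members of each list (or the 2 with the smallest p), pathway genes, and up to 5 genes a direction called between the inhibitors. The comparison, the lists and this rule were chosen with earlier results of these data known. Members named without statistics show only which were called. Some genes are not reported here. Promoters were matched by symbol, taking the first entry of a gene.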

Additional observations from a re-analysis of the deposited data

How the results depend on the processing

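No named gene that was called changed direction under the alternatives tried, and the number of calls depended on the setting. The medians of lists near 0 changed sign when 1 library was left out: cGAS-STING (-0.03 to 0.0032), immediate early factors, sterol efflux, NRF2, glycolysis, lysosome and mitochondrial genes, and fibroblast, B cell, mast cell (-0.62 to 0.29) and erythroid markers. SN-011 against vehicle gave 340 calls (324 lower, 16 higher). It gave 679 calls (485 lower) with genes kept from 1 count and 567 (458 lower) with the exact test, and between 121 and 481 when 1 library was left out. The lower calls ranged from 121 to 417 with 1 library left out. The higher calls ranged from 0 to 69 with 1 library left out, and were 29 with scaling by total counts alone, 194 with genes kept from 1 count, 109 with the exact test and 40 with only the 2 groups fitted. Without H151 replicate 1 or 2 they were 58 and 69, and without WT replicate 1 or 2 they were 9 each. SN-011 against H151 gave 23 calls, 266 with genes kept from 1 count, 38 with DESeq2, 72 with the exact test and between 2 and 270 with 1 library left out. SN-011 against WT gave 1714 calls and between 906 and 1944 with 1 library left out. DESeq2 left 2829 genes without an adjusted p in the first comparison. The cause of each shift was not tested. The median of the mast cell list could not be computed with a minimum count of 30, where no member was left.

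The titles give each group replicates 1 and 2, and the deviations of same-numbered SN-011 and vehicle libraries from their group means correlated at -0.006 across genes (0.194 between vehicle and H151 libraries, and -0.016 to 0.061 for the other pairs of groups). What the numbers stand for is not given, and they were not taken to pair the libraries. With the replicate number as a block there were 436 calls (387 lower, 49 higher), among them all 324 and all 16, and 44 against H151. With 2 libraries a side an exact permutation test of a single value cannot give a p under 0.333. Of 56 named genes that fell, 25 kept their call in every alternative.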

Other observations

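Single genes outside the fixed lists, which hold 142 of the 324 genes that fell, also fell with SN-011. They were picked after their values were seen from among the called genes, and nothing follows from them for any gene group. Sp100, a protein of PML nuclear bodies, went from 364 and 359.9 CPM to 224 and 238 CPM (log2 fold change -0.65 ± 0.06, edgeR adjusted p = 4.28e-05) and Pml from 153 and 136 CPM to 86.0 and 98.0 CPM (-0.66 ± 0.09, edgeR adjusted p = 0.000582). Sp110 fell less (-0.56). C3, the central complement protein, went from 269 and 270.4 CPM to 111 and 109.5 CPM (-1.29 ± 0.17, edgeR adjusted p = 0.000499). These 4 genes kept their calls in every alternative.

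Siglec1, the sialic acid receptor known as an interferon-induced marker of monocytes, went from 1701 and 1526 CPM to 1145 and 1179 CPM (-0.47 ± 0.06, edgeR adjusted p = 0.000582), with 567 and 605 CPM in WT. Tmem176a and Tmem176b, neighbouring genes of myeloid cells, were lower with SN-011 than in WT and than with vehicle. Neither was called between SN-011 and H151. Tmem176a was at 131 and 104 CPM in WT, 94.3 and 96.1 CPM with vehicle and 55.5 and 54.0 CPM with SN-011 (-0.80 ± 0.09 against vehicle, edgeR adjusted p = 0.000220), and Tmem176b at 255 and 203 CPM, 183 and 194 CPM and 116 CPM in both (-0.71 ± 0.09, edgeR adjusted p = 0.000465). Siglec1, Tmem176a and Tmem176b also kept their calls in every alternative.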
